A study of Mus musculus with 88 samples.

Results

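Fully grown germinal vesicle (GV) oocytes are arrested in prophase of the first meiotic division and fall into a non-surrounded nucleolus (NSN) and a surrounded nucleolus (SN) configuration, according to whether condensed chromatin forms a ring around the nucleolus. The oocytes described here are the SN oocytes of the series: 8 from old and 12 from young mice, 20 of the 88 oocytes sequenced. The configuration is the one the study predicted for each library from its own transcripts, not one seen under the microscope. The prediction used genes with higher levels in SN oocytes. The paper holds it likely that such a call fails to match the true chromatin state. The paper also placed all old SN oocytes in a young-like subgroup of old oocytes, found with age-associated transcripts. Similar levels and spread below thus describe old oocytes of that subgroup only. The females were virgin C57BL/6Babr mice of 12 weeks (young) or 44 to 54 weeks (old), and the labels give no genetic change or treatment for either group. Each library is the RNA of 1 oocyte, taken with the joint transcriptome and methylome protocol, and the labels name no mouse. The exact number of females behind these 8 and 12 oocytes is therefore unknown. It is at most the number of mice from which the paper took all oocytes of that age, which was smaller for young than for old. Each age counts as 1 sample, and no test or p-value is given below. The remaining oocytes were 37 old and 30 young NSN oocytes, used here only for values side by side, and 1 old oocyte with no predicted configuration.

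The change from NSN to SN is the last step of oocyte growth. Transcription shuts down as chromatin condenses around the nucleolus, and the oocyte then relies on stored maternal mRNA until the embryo's genome is activated. SN oocytes are known to complete maturation and support early development more often than NSN oocytes. The libraries were made from polyadenylated mRNA captured with oligo-dT. Levels in SN oocytes thus describe the polyadenylated part of the stored mRNA with which meiosis resumes, and tail length was not measured.

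The SN libraries held 1007492 to 8231046 counts over 38540 transcript features, which are the units of the study's oocyte transcriptome. Thinned to 900000 counts, old SN oocytes had a median of 17480.5 detected features (lowest 15762, highest 18373) and young ones 17616.5 (16268 to 18458), so the ranges overlapped almost fully. Oocyte marker genes summed to between 22473 and 28981 CPM (counts per 1000000 counts of the library) in every SN library. Of the 14 measured granulosa cell markers, 2 reached 10 CPM (Kitl and Nr5a2), and the list summed to 35.2–79.5 CPM in young and 40.7–70.2 CPM in old oocytes. Of the 6 stroma and theca markers 4 had no count, the immune list stayed at or under 2.39 CPM in every oocyte, and the endothelium and blood list (50.7–101 CPM) was almost entirely Pecam1, with both globins at 0. Old oocyte 15 had the shallowest library and a total that differed from the one in the study's supplementary table, while the other 19 were equal to it. Young oocyte 24A held 21.5% of all young SN counts and old oocyte 41 held 24.1% of all old SN counts.

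Levels of most features were close between the ages. Unless a single oocyte is meant, a CPM value below pools the counts of all oocytes of 1 age and configuration, with a 95% exact Poisson interval in parentheses where given, which covers counting error only, and CPM is not divided by transcript length. Of the 9703 features with at least 10 CPM in old or young SN oocytes, 158 were at least 1.5-fold higher in old oocytes (1.63%) and 73 at least 1.5-fold lower (0.752%), and the median log2 ratio was -0.004. At 2-fold, 17 features were higher and 13 lower. With all features sorted by mean count, whatever their CPM, the median log2 ratio lay between -0.06 and 0.02 in each class. Of features with a mean of at least 1000 counts, 0 of 460 were 1.5-fold higher and 2 lower, whereas at a mean of 1 to 10 counts 1327 of 7606 were higher and 1650 lower.

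**Figure D1:**
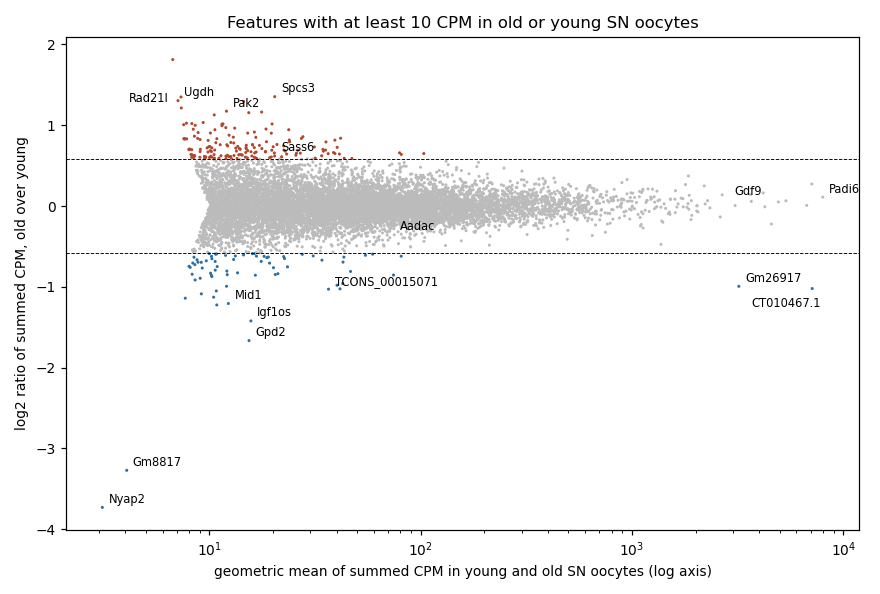
Log2 ratio of summed CPM (old over young SN oocytes, vertical axis) against the geometric mean CPM of both ages (log axis) for the 9703 features with at least 10 CPM in an age. Dashed lines mark 1.5-fold; red points (158) lie above, blue points (73) below, and the ribosomal RNA features CT010467.1 and Gm26917 stand apart from the other abundant features.

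The split between higher and lower features depended on how oocytes were weighted. When every oocyte counted alike (mean of the oocytes' CPM) 73 features were higher and 93 lower. Without young oocyte 24A, 83 were higher, 80 of them among the 158, and 93 were lower, 56 of them among the 73. Without old oocyte 15, 156 of the 158 and 68 of the 73 remained.

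The ages overlapped in nearly every feature. Only Sass6 had all old oocytes above all young oocytes (0.0103% of the features tested), and only Aadac had all old oocytes below all young ones (0.0103%). Leaving out 1 oocyte gave 2 to 6 such features in all.

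Sass6 (chr3:116595008-116630984, GRCm38, plus strand, with a feature on its other strand) encodes the protein that forms the cartwheel at the start of centriole assembly. Its level in young SN oocytes was lowest at 10.8, median 16.7 and highest at 21.6 CPM, and in old SN oocytes 21.995, 24.3 and 29.4 CPM. The gap between the ages was thus narrower than the spread within either. Summed CPM was 16.4 (15.2–17.8) in young and 25.2 (23.1–27.5) in old oocytes, 1.54-fold higher. The log2 ratio of 0.62 was 0.58 without old oocyte 41 and 0.57 without young oocyte 22A, just under 1.5-fold. In NSN oocytes Sass6 had 16.004 CPM in young and 16.3 CPM in old, a log2 ratio of 0.03.

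Aadac (chr3:60025674-60040573, plus strand) encodes arylacetamide deacetylase, an esterase of the endoplasmic reticulum. Young SN oocytes ran from 77.2 over a median of 85.9 to 99.3 CPM and old ones from 54.1 over 64.8 to 77.03 CPM. The highest old and the lowest young oocyte were nearly equal. Summed CPM was 84.8 (81.9–87.8) in young and 66.2 (62.7–69.9) in old, a log2 ratio of -0.36, and in NSN oocytes 91.3 and 72.7 CPM, a log2 ratio of -0.33. Oocytes of both configurations came from the same collections, so the NSN values are not known to be from other mice.

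The features with the lowest ratios included transcripts that were close to absent from old SN oocytes. Nyap2 (chr1:81077317-81341764, plus strand), an adaptor that links tyrosine kinases to phosphoinositide 3-kinase in neurons, was at 2.39, 9.55 and 18.1 CPM (lowest, median, highest) in young SN oocytes. In old SN oocytes it was at 0, 0.241 and 2.98 CPM, with 17 counts in 4 of 8 oocytes. Of the old oocytes 7 lay below every young oocyte, and only old oocyte 15 overlapped the young range. Summed CPM was 11.3 (10.3–12.4) in young and 0.854 (0.497–1.37) in old, 13.3-fold lower. Leaving out any 1 oocyte kept the log2 ratio between -4.83 (without old oocyte 41) and -3.48.

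Gm8817, a long intergenic non-coding RNA on the X chromosome (chrX:167061242-167070389, minus strand), was variable in both ages. Young SN oocytes ran from 0 to 28.1 CPM with a median of 10.3, while 5 of 8 old oocytes were at 0 and the highest, oocyte 12, was at 10.1 CPM. Summed CPM was 12.6 in young and 1.31 (0.853–1.91) in old oocytes, a log2 ratio of -3.27. Without old oocyte 12 the log2 ratio was -5.49.

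Gpd2 (chr2:57291244-57370905, plus strand), the mitochondrial glycerol-3-phosphate dehydrogenase that feeds electrons from the cytosol into the respiratory chain, was at 3.91, 21.8 and 52.2 CPM in young and 2.46, 8.05 and 19.3 CPM in old SN oocytes. The ranges overlapped, with 2 of 8 old oocytes below all young ones. Summed CPM was 27.4 (25.8–29.1) and 8.64 (7.40–10.0), 3.17-fold lower in old.

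Igf1os (chr10:87826377-87919569, minus strand), a non-coding transcript antisense to the gene of insulin-like growth factor 1, separated the ages more evenly. It was at 15.4, 22.6 and 39.4 CPM in young and 2.101, 11.2 and 15.9 CPM in old SN oocytes, with 7 of 8 old oocytes below all young ones and 11 of 12 young oocytes above all old ones. Its log2 ratio was -1.42. A feature lies on its other strand and the library kit does not mark strand, so the reads of both cannot be told apart.

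An unannotated feature on chromosome 11 (TCONS_00015071, chr11:41462785-41467517, plus strand) showed the same kind of separation at a higher level. Young SN oocytes were at 35.8, 56.6 and 67.1 CPM and old ones at 7.84, 22.8 and 39.8 CPM, and 7 of 8 old oocytes lay below all young ones. Summed CPM was 52.3 (50.0–54.6) and 25.6 (23.4–27.9), 2.04-fold lower in old.

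The other features among the 12 lowest had log2 ratios from -1.22 to -1.02. Mid1, a microtubule-associated ubiquitin ligase encoded on the X chromosome, had 18.7 CPM in young and 8.09 CPM in old SN oocytes. Foxp2, a forkhead transcription factor, had 11.4 and 5.17 CPM, with 4 of 8 old oocytes below all young ones. Sgms2, a sphingomyelin synthase, had 13.3 and 6.28 CPM, and its log2 ratio of -1.09 was -0.51 without young oocyte 24A. The rest were AU018091 (-1.13), the olfactory receptor pseudogene Olfr650-ps1 (-1.05) and the unannotated TCONS_00112916 on the X chromosome (-1.22) and TCONS_00063380 on chromosome 2 (-1.02). Among oocytes named with the suffix A, AU018091 was at -0.31 and TCONS_00063380 at -0.27. Of TCONS_00112916, 6 of 8 old oocytes lay below all young ones, and oocyte 46 stood apart at 22.7 CPM.

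**Figure D2:**
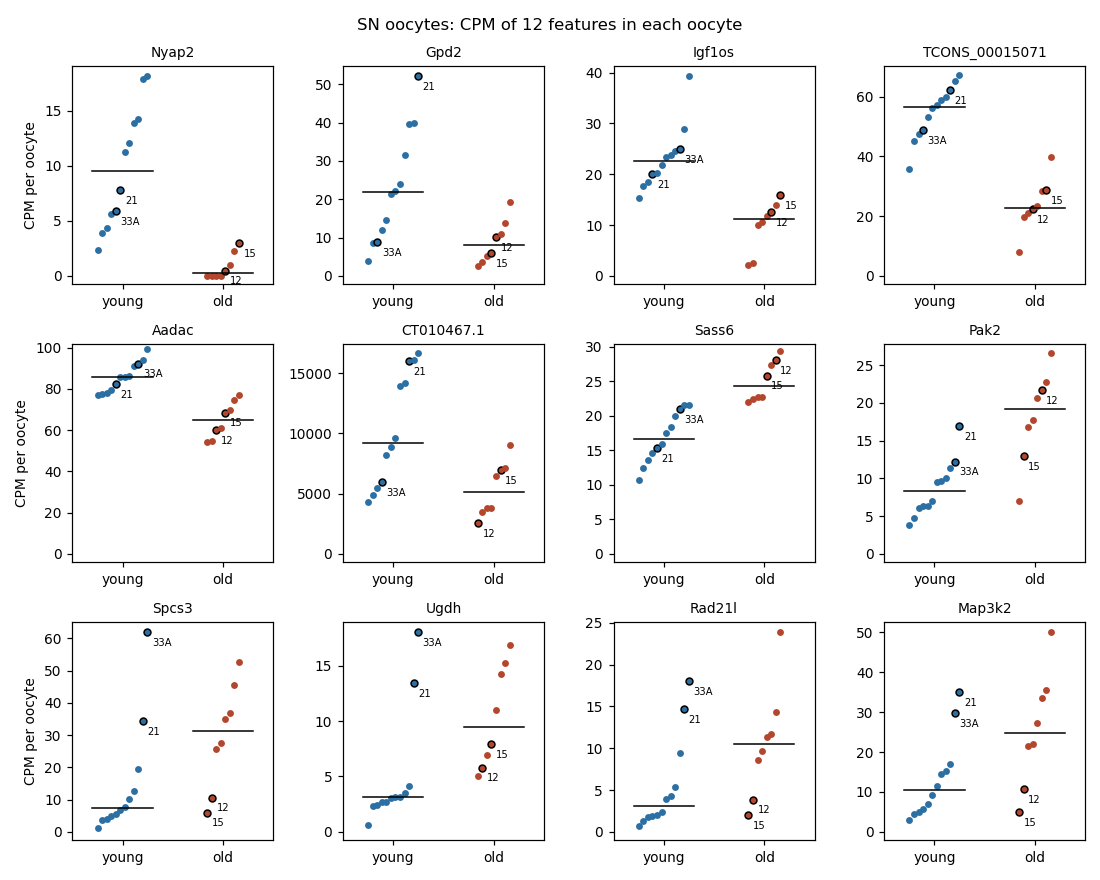
CPM of 12 features in each SN oocyte (vertical axes from 0, 1 point an oocyte, young blue and old red, points spread sideways by rank, bar at the median). Outlined points are young oocytes 21 and 33A and old oocytes 12 and 15. In the bottom row these 2 young oocytes are at the top of their age. These 2 old oocytes are mostly, but not in every panel, at or near the bottom of theirs.

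Features with the highest ratios were of low to moderate level and overlapped between the ages. Spcs3 (chr8:54518448-54529998, minus strand), a subunit of the signal peptidase complex that trims secreted and membrane proteins, was at 1.19, 7.27 and 62.0 CPM in young and 5.96, 31.2 and 52.6 CPM in old SN oocytes. The highest value of all was thus in a young oocyte, although the old median was far above the young one. Summed CPM was 12.7 (11.6–13.9) and 32.5 (30.1–35.1), 2.56-fold higher in old.

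Ugdh (chr5:65413149-65435946, minus strand) makes the UDP-glucuronic acid from which hyaluronan and other glycosaminoglycans are built. It was at 0.597, 3.10 and 18.1 CPM in young and 5.02, 9.47 and 16.9 CPM in old SN oocytes, and 10 of 12 young oocytes lay below all old ones. The other young oocytes, 21 and 33A, were at 13.4 and 18.1 CPM. Its log2 ratio was 1.304.

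Rad21l (chr2:151644304-151670637, minus strand), a kleisin subunit found in meiotic cohesin, was at 0.633, 3.14 and 18.1 CPM in young and 1.99, 10.5 and 23.9 CPM in old SN oocytes. Its log2 ratio was 1.21, and 1 old oocyte lay above all young ones. Pak2, a serine/threonine kinase, was at 3.89, 8.27 and 16.9 CPM in young and 7.03, 19.2 and 26.6 CPM in old oocytes, and 5 of 8 old oocytes lay above all young ones. Map3k2, a kinase at the top of MAP kinase cascades, had 11.8 CPM in young and 26.4 CPM in old oocytes, Usp35, a deubiquitinase, 6.52 and 13.4 CPM, and Gpkow, a splicing factor encoded on the X chromosome, 5.45 and 11.1 CPM. Among oocytes named without the suffix A the log2 ratios of Map3k2, Usp35 and Gpkow were 0.48, 0.42 and 0.21.

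The remaining 5 of the 12 highest were unannotated. TCONS_00104688 (chr9:120786980-120787783, plus strand) had the highest ratio of all, with 3.58 CPM in young and 12.6 CPM in old SN oocytes, a log2 ratio of 1.81, or 2.76 without young oocyte 21. Its values were nearly all or none: 3 of 12 young oocytes had 6.71, 9.76 and 22.5 CPM and the other 9 at most 1.79 CPM, while old oocytes ran from 0 to 31.4 CPM with a median of 13.2. The others, on chromosomes 13, 8, 4 and 7, had log2 ratios of 1.35 (TCONS_00027700), 1.29 (TCONS_00096969, which was 0.27 without the old oocytes named 41 to 48), 1.16 (TCONS_00072839) and 1.13 (TCONS_00093338).

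The same few oocytes set the spread of the features that were higher in old. Young oocyte 21 was among the 2 highest young oocytes in 11 of these 12 features, and young oocyte 33A also in 11. Old oocyte 12 was among the 2 lowest old oocytes in 11 of the 12 features, and old oocyte 15 in 11. Summed over the 12, young oocytes ran from 43.6 to 248 CPM with a median of 70.6, and old oocytes from 59.6 to 302 CPM with a median of 221. Of the old oocytes, only 28A (261 CPM) and 46 (302 CPM) were above all young ones. Old oocytes 12 (91.8 CPM) and 15 (59.6 CPM) were the lowest of their age. Young oocytes 21 (223 CPM) and 33A (248 CPM) were at the level of the other old oocytes. Old oocytes 12 and 15 are also the only old SN oocytes named 9 to 16. The other old SN oocytes are named 25 to 31 or 41 to 48. Whether such runs of names differ apart from age was not tested.

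The same oocytes were at these ends across the 158 features that were at least 1.5-fold higher, which were chosen on these oocytes. Young oocyte 33A was among the 2 highest young oocytes in 70.3% of them and young oocyte 21 in 61.4%, against 21.9% and 18.5% of all 9703 features. Old oocyte 15 was among the 2 lowest old oocytes in 72.8% and old oocyte 12 in 51.3% of them, against 35.1% and 26.7% of all features. Young oocyte 24A, which weighs most in the young sum, was among the 2 lowest young oocytes in 44.3% of the 158, against 16.4% of all features. Among the 73 lower features, young oocyte 33A was among the 2 lowest young oocytes in 27.4% and young oocyte 21 in 21.9%, against 21.2% and 16.2% of all features. Old oocyte 15 was among the 2 highest old oocytes in 36.99% of the 73 and old oocyte 12 in 34.2%, against 24.3% and 24.7% of all features.

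The 12 lowest features summed to between 234 and 427 CPM in young and 71.5 and 160 CPM in old SN oocytes. The members were chosen for low ratios in these same oocytes, so the separation of this sum restates the choice. Single features overlapped: AU018091 was at 18.6 CPM in old oocyte 28A, above the young median of 13.9 CPM, and Sgms2 at 10.0 CPM in old oocyte 41, above the young median of 7.22 CPM.

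NSN oocytes, which took no part in choosing the features, had the lower features in the same direction. Of the 73 features at least 1.5-fold lower in old SN oocytes, 69 (94.5%) had lower summed CPM in old than in young NSN oocytes, against 52.8% of all 9703 features, and 15 (20.5%) were at least 1.5-fold lower, against 0.680% of all features. The share was 69.1% of the features lower among oocytes named with the suffix A. All 12 lowest named features were lower in old NSN oocytes, with log2 ratios from -2.53 to -0.36. Nyap2 had 9.67 CPM in young and 3.77 CPM in old NSN oocytes, Gm8817 12.8 and 2.21 CPM, Igf1os 26.6 and 14.6 CPM, and TCONS_00015071 53.7 and 27.6 CPM. The log2 ratio of Gpd2 was -0.39 in NSN oocytes, beside -1.67 in SN oocytes, and the difference was not tested.

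Features higher in old SN oocytes were not generally higher in old NSN oocytes. Of the 158 features, 59 (37.3%) had higher summed CPM in old NSN oocytes, against 47.2% of all features. At least 1.5-fold higher were 2 (1.27%), against 0.0412% of all features (4 of 9703). At least 1.5-fold lower in old NSN oocytes were 10 (6.33%), against 0.680% of all features. The share with higher summed CPM was 52.4% of the features higher without the old oocytes named 25 to 31. It was 62.3% of those higher among oocytes named without the suffix A. Among the 12 highest, 4 had the same direction: TCONS_00104688 (log2 ratio 1.61, at 0.0737 and 0.225 CPM), TCONS_00072839 (0.53), Rad21l (0.21) and Map3k2 (0.01). Spcs3 had 3.23 CPM in young and 2.97 CPM in old NSN oocytes, Ugdh 1.76 and 1.61 CPM, and Pak2 5.16 and 4.73 CPM.

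Most of the 158 features were more abundant in SN than in NSN oocytes at both ages. In young mice 145 of the 158 had higher summed CPM in SN oocytes, beside 5015 of all 9703 features, with a median log2 ratio of SN over NSN of 0.53, beside 0.008 over all features. In old mice 156 of the 158 were higher in SN oocytes, beside 4840 of all features, with a median of 1.28, beside -0.001. Their sum ran from 1409 to 4003 CPM with a median of 2011 in young SN oocytes. In old SN oocytes it ran from 2210 to 4634 CPM with a median of 3711. The lowest old sums were those of oocytes 15 (2210 CPM) and 12 (2538 CPM), the old SN oocytes named 9 to 16. In NSN oocytes the medians were 1428 CPM in young and 1435 CPM in old. Both ages' SN values chose these features: the choice of features high in old SN oocytes raises the old ratio, and that of features low in young SN oocytes lowers the young one. Because the configuration itself was predicted from transcripts, how far each SN oocyte had moved from NSN to SN was not measured apart from its mRNA.

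**Figure D3:**
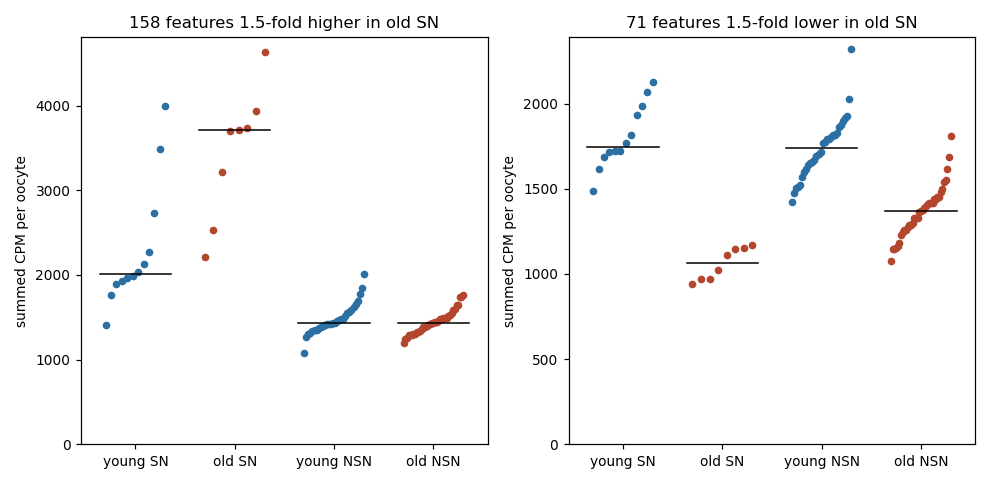
Summed CPM per oocyte (1 point an oocyte, bar at the median, axes from 0) of the 158 features at least 1.5-fold higher in old SN oocytes (left) and of the 71 lower features other than the pair of ribosomal RNA features (right), in young and old SN and NSN oocytes. The SN columns show the choice of the features; in NSN oocytes the left medians were 1428 and 1435 CPM, and the right medians 1742 CPM in young and 1367 CPM in old.

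**Figure D4:**
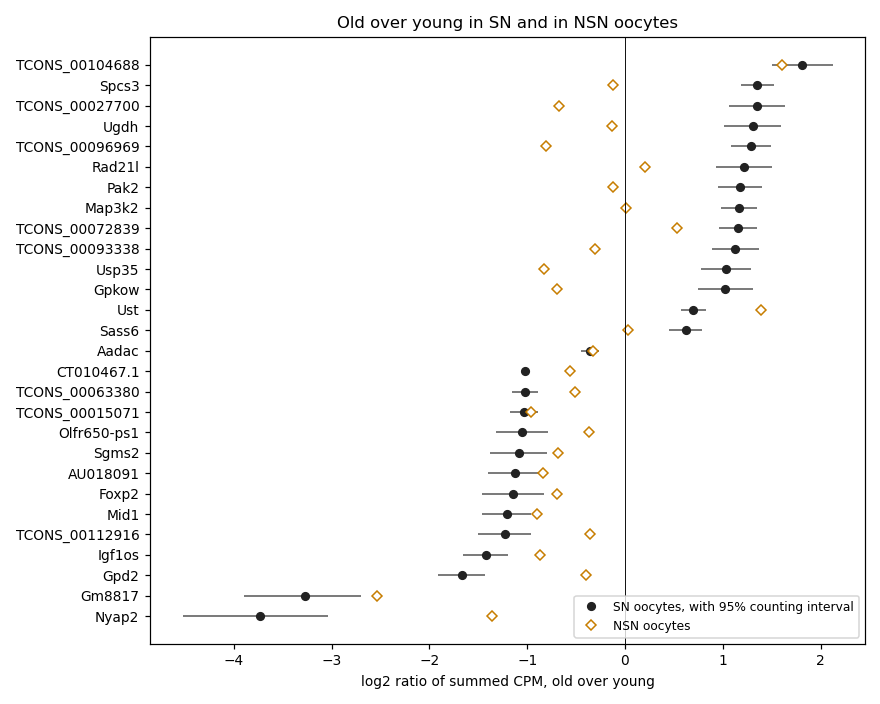
Log2 ratio of summed CPM, old over young, in SN oocytes (black, line: 95% counting interval) and in NSN oocytes (open diamonds) for the 12 highest and 12 lowest features, Sass6, Aadac, CT010467.1 and Ust. All diamonds of the lower features lie below 0, and those of the higher features lie on both sides of 0.

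Reads of ribosomal RNA features were fewer in old SN oocytes. The libraries were made from polyadenylated RNA captured with oligo-dT, and whether these reads follow the rRNA content of the oocyte was not tested. CT010467.1 (chr17:39842997-39848831, minus strand), annotated as rRNA, was the most abundant feature in young SN oocytes. It was at 4274, 9242 and 16702 CPM in young and 2581, 5151 and 9001 CPM in old oocytes, so the ranges overlapped and 4 of 8 old oocytes were below all young ones. Summed CPM was 10161 in young and 5005 in old, 2.03-fold lower in old oocytes. Gm26917, on the other strand of the same place (5792 bases shared), had 4523 and 2271 CPM, and the ratio of both features was 2.09 to 2.41 in every SN oocyte, so their reads are not separate measurements. Together they took 0.605–2.41% of the counts of young and 0.372–1.31% of those of old SN oocytes. In NSN oocytes CT010467.1 had 6868 CPM in young and 4661 CPM in old. Leaving the pair out of the totals changed the counts of features past 1.5-fold to 148 higher and 73 lower. With oocytes named with the suffix A alone, the log2 ratio of -1.02 was -0.44.

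The most abundant mRNAs were those of known oocyte genes and were close between the ages. Padi6, a component of the cytoplasmic lattices, was at 5672, 7624 and 8598 CPM in young and 7107, 8467 and 9326 CPM in old SN oocytes, with 4 of 8 old oocytes above all young ones and a log2 ratio of 0.11. Nlrp14, an oocyte NLR family protein, was at 5696, 6370 and 9186 CPM in young and 7370, 7815 and 8236 CPM in old oocytes. Of the young oocytes 10 of 12 were below all old ones and 1 was above all of them, and the log2 ratio was 0.27. Spin1, a reader of histone methylation, had 6698 CPM in young and 6734 CPM in old oocytes, the growth factor Gdf9 5236 and 5475 CPM, Bmp15 4271 and 4243 CPM, and the zona pellucida gene Zp2 3949 and 4419 CPM. Zbed3, a partner of the subcortical maternal complex, had 4937 and 4229 CPM, a log2 ratio of -0.22. The unannotated TCONS_00107388 had 4843 and 5017 CPM.

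Genes that the study names for their expression differed little in SN oocytes when they were abundant. The log2 ratio was 0.13 for Nlrp5, a core protein of the subcortical maternal complex, 0.07 for Dnmt1, the maintenance DNA methyltransferase, 0.07 for Uhrf1, its recruiting partner, and 0.09 for Dppa3, which protects the maternal genome from demethylation. Dnmt3a and Dnmt3l, which establish DNA methylation in growing oocytes, had log2 ratios of -0.07 and 0.02. All of these overlapped between the ages. No feature was named Tcl1 here.

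Low-level genes of the same group had larger ratios. Ust, a sulfotransferase that modifies chondroitin and dermatan sulfate, was at 4.39, 24.7 and 63.1 CPM in young and 15.9, 33.97 and 74.6 CPM in old SN oocytes. Its log2 ratio was 0.70, 0.34 without old oocyte 41 and 0.57 without young oocyte 22A, and 1.39 in NSN oocytes. Dync1i1, an intermediate chain of cytoplasmic dynein, had 8.85 and 4.52 CPM (log2 ratio -0.97, and -0.77 in NSN oocytes). Ppp3ca, a catalytic subunit of calcineurin, had 10.6 and 6.53 CPM (-0.71, and -0.52 in NSN oocytes). Among oocytes named with the suffix A the log2 ratios of Dync1i1 and Ppp3ca were -0.38 and -0.32. Without the young oocytes named 33 to 39 they were -0.52 and -0.55. Ppp3ca was at -0.58 without the old oocytes named 9 to 16. Ppil3, a prolyl isomerase, had 87.2 and 105 CPM, a log2 ratio of 0.26 beside 0.39 in NSN oocytes. The feature TCONS_00074179 had 2.77 CPM in young and 1.56 CPM in old SN oocytes.

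Gene lists chosen for meiosis, maternal mRNA and known themes of oocyte ageing had medians within 0.1 of 0 on the log2 scale, other than ribosomal proteins. In that list, 69 of the 78 ribosomal protein genes with at least 10 CPM had lower summed CPM in old SN oocytes, beside 4938 of all 9703 features, and the median log2 ratio was -0.18. None was 1.5-fold lower, beside 0.752% of all features. Rps2 (30.9 and 22.7 CPM) and Rpl36a (23.5 and 17.7 CPM) had the lowest log2 ratios, -0.44 and -0.40. Rpl9 had the highest, 0.86, and was the 1 member at least 1.5-fold higher, beside 1.63% of all features. The log2 ratio of Rpl9 was 0.23 among oocytes named without the suffix A and 0.51 without the old oocytes named 25 to 31. The list summed to 4723, 5642 and 8016 CPM in young and 4061, 5269 and 6729 CPM in old oocytes, so 2 of 8 old oocytes were below all young ones. In NSN oocytes the median log2 ratio was 0.01. The list median ran from -0.23 to -0.11 when any 1 oocyte was left out.

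Of the 72 nuclear genes of the respiratory chain and ATP synthase, 56 were lower in old SN oocytes. Their median log2 ratio was -0.08, beside 0.04 in NSN oocytes. None passed 1.5-fold, beside 1.63% of all features higher and 0.752% lower. Ndufb10 (17.02 and 12.6 CPM) and Ndufb3 (53.5 and 42.9 CPM), subunits of complex I, had the lowest ratios, -0.43 and -0.32. Uqcrc1 of complex III had the highest, 0.56. Of 33 proteasome subunits 21 were lower (median -0.07), with Psmb1 at -0.31 and Psmd13 at 0.49.

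**Figure D5:**
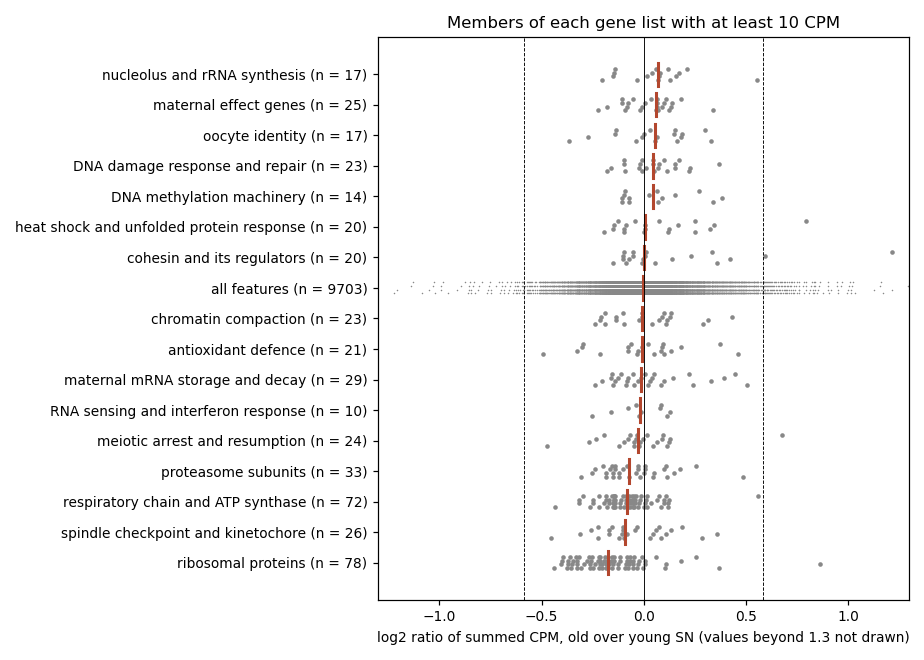
Log2 ratio of summed CPM (old over young SN oocytes, horizontal axis) of each list member with at least 10 CPM (grey points) and the list median (red bar), ordered by median. Dashed lines mark 1.5-fold; ribosomal proteins have the lowest median (-0.18) and the nucleolus list the highest (0.07), and the row of all features gives the background.

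Meiosis lists held 3 members past 1.5-fold, all higher in old oocytes. Of all 9703 features, 1.63% were at least 1.5-fold higher and 0.752% lower, and no list was tested against these shares. Of 20 cohesin genes and regulators 2 were at least 1.5-fold higher, beside 1.63% of all features, Rad21l and Pds5a, a regulator of cohesin release (12.3 and 18.6 CPM, log2 ratio 0.60, which fell under 1.5-fold without old oocytes 12, 26A, 28A or 46 or young oocytes 22, 22A, 23, 24A, 35A, 38 or 38A, each left out alone, and was lowest at 0.45 without 24A), and the list median was 0.00. Espl1, the separase that opens cohesin, was lowest at -0.15, and Sgo1, which protects centromeric cohesin, was at -0.10. Of 26 spindle checkpoint and kinetochore genes 16 were lower in old SN oocytes, with a median of -0.09 and none past 1.5-fold. Cenpa, the histone variant of the centromere, was lowest: 64.4 CPM in young and 47.1 CPM in old oocytes (-0.45), with 3 of 8 old oocytes below all young ones. Aurkc, the meiotic Aurora kinase, was at -0.31, and the spindle motor Kif11 was highest at 0.36. Of 24 genes of meiotic arrest and resumption 1 passed 1.5-fold, Cdc14b, a phosphatase that restrains meiotic resumption (18.1 and 28.9 CPM, log2 ratio 0.68; 0.58 without young oocyte 24A). Prkaca, a catalytic subunit of protein kinase A, was lowest at -0.48, and the list median was -0.03.

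No member of the oocyte identity list (17 genes, median 0.05), the maternal effect genes (25, median 0.06) or the list of maternal mRNA storage and decay (29, median -0.02) passed 1.5-fold. Of all features, 1.63% were at least 1.5-fold higher and 0.752% lower, so lists of this size would hold few such members or none. Extremes of the oocyte identity list were the RNA-binding protein Dazl at 0.33 and the secreted oocyte proteins Oosp3 at -0.36 and Oosp1 at -0.27. Kdm1b, the H3K4 demethylase needed to set maternal imprints, was highest of the maternal effect genes at 337 and 427 CPM, a log2 ratio of 0.34 beside -0.48 in NSN oocytes. Of the storage and decay genes, Cnot6, a deadenylase, was highest at 0.51 and Pabpn1l, a poly(A)-binding protein of oocytes, lowest at -0.24.

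The remaining lists also had medians within 0.07 of 0 on the log2 scale. Of 21 antioxidant genes (median -0.01), Nfe2l2, the transcription factor that drives the antioxidant response, was at 0.46 with 4 of 8 old oocytes above all young ones, and Keap1, its inhibitor, at -0.49. Of 23 DNA damage and repair genes (0.05), Atm was highest at 0.37 and Nbn lowest at -0.18. Of 14 genes of the DNA methylation machinery (0.05), Mat2a, which makes the methyl donor S-adenosylmethionine, was highest: 77.7, 117 and 135 CPM in young and 108, 155 and 176 CPM in old oocytes, with 6 of 8 old oocytes above all young ones and a log2 ratio of 0.38 beside 0.02 in NSN oocytes. Of 23 chromatin compaction genes (-0.01), the condensin subunit Smc2 was at 0.43 and Top2a at -0.24. Of 17 nucleolar and rRNA synthesis genes (0.07), Ubtf was at 0.56 and Polr1d at -0.20. Of 20 heat shock and unfolded protein response genes (0.01), 1 was past 1.5-fold, beside 1.63% of all features higher in old oocytes. This was Hsf2, a heat shock transcription factor (14.1 and 24.5 CPM, log2 ratio 0.80, and 0.55 without young oocyte 24A). Hsp90b1, a chaperone of the endoplasmic reticulum, was at 0.35. Of 10 RNA sensing and interferon genes (-0.02), Ddx58 was at 0.13 and Oas1b at -0.25.

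By annotation, unannotated features passed 1.5-fold more often in both directions (4.29% higher and 2.14% lower of 1119) than protein-coding ones (1.25% and 0.449% of 8023), and their medians were 0.01 and -0.01. Of 296 X-linked features 12 were at least 1.5-fold lower (4.05%, beside 0.752% of all features) and 8 higher (2.70%, beside 1.63%). The chromosome's median was -0.01. Medians of the 19 autosomes lay between -0.03 and 0.03.

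The spread among oocytes was on the whole no larger in old than in young SN oocytes. Dispersion, the variance over oocytes relative to the squared mean after counting noise was taken off, was computed for the 12335 features that averaged 10 or more normalised counts. Its median over these features was 0.0347 among the 12 young and 0.0258 among the 8 old oocytes, and 39.8% of them were more dispersed in old oocytes. The median log2 ratio was -0.30 over the 10974 features with a dispersion above 0 in both ages. Values from 8 oocytes and from 12 are not alike in their own error, and the median log2 ratio ran from -0.41 to -0.17 when 1 oocyte was left out, and it was 0.086 among oocytes named without the suffix A. The median distance between oocytes (log2 normalised counts) was 70.1 among young and 66.9 among old, 65.5 without old oocyte 15, and after thinning 52.6 and 50.3. Nlrp14 was among the genes with a narrower spread in old (dispersion 0.0242 in young and 0.000685 in old), while Nyap2 (0.280 and 1.42) and TCONS_00015071 (0.0197 and 0.123) were wider in old, where their levels were low. The 5 highest and 5 lowest dispersion ratios all had a dispersion of at most 0.000338 in an age (for example Arfgap1 and Rtf1 in young, Bcas3 and Gnb1 in old), too near 0 for the ratio to be read as a size.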

How the data were processed

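The deposited table held counts of reads per transcript feature, made by the authors by trimming single-end Smart-seq2 reads (Trim Galore 0.4.4), aligning them to GRCm38 (HiSat2 2.1.0) and counting primary alignments over an oocyte transcriptome. The counting program and its strand setting are not given in the sources used here. The libraries carry no molecular identifiers. Each feature took the name of the same-strand gene in GENCODE M21 whose span was most like its own (at least 0.2 of the joined bases shared). The study's name table was planned as the first source, but 224 of its 269 differing names belonged to a gene on the other strand, so it became the alternative. Predicted configuration came from the study's supplementary table, and the members and gene lists were chosen with earlier results of these data known. Counts were summed over oocytes and scaled to CPM (Python 3.11.15, numpy 2.4.6, pandas 2.3.3, scipy 1.17.1); features with at least 10 CPM in an age were compared. Dispersion and distance used median-of-ratios size factors (distance with a pseudocount of 1), and detection used counts thinned to 900000. TMM factors (edgeR 4.0.16 in R 4.3.3) served as an alternative scaling; edgeR ran no test. Ratios and dispersions were tested on simulated data. Named features had at least 3 counts in both ages and a median moving with the summed CPM, also without old oocyte 15: the 12 highest and 12 lowest ratios, features without overlap between the ages, genes the study names, the 10 most abundant, the 2 highest and 2 lowest of each list, and the 5 highest and 5 lowest dispersion ratios (mean normalised count of at least 50). Those rules on counts and medians did not apply to genes taken from lists, abundance or the study. Oocytes of 1 mouse share their source, and which oocytes shared a mouse is not given.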

Additional observations from a re-analysis of the deposited data

Results flagged for a closer look

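Among 67 values examined over the 8 old SN oocytes, 6 had an oocyte set apart by a gap of over 0.526 of the whole range. Chance alone would set apart about 1 in 20 if values were normally distributed. That rate need not hold for low CPM with many oocytes at 0, such as Gm8817. The rule was not applied to the 12 young oocytes. Gm8817 was at 10.1 CPM in old oocyte 12, beside an old median of 0. TCONS_00112916 was at 22.7 CPM in old oocyte 46 (median 4.99), and Dync1i1 at 11.8 CPM in old oocyte 27A (median 3.61). TCONS_00074179 was at 6.95 CPM in old oocyte 15 (median 1.82), and the spindle checkpoint and kinetochore list summed to 6735 CPM in the same oocyte (median 5833). The heat shock and unfolded protein response list summed to 6443 CPM in old oocyte 47 (median 7601).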

How the results depend on the processing

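Of 39 alternatives, 33 gave a value for each named feature (31 for Gm8817), and in these no named feature past 1.5-fold changed direction. Of 1820 values that answer a comparison, 55 moved (a count by over 1.5 times, a median log2 or distance ratio by 0.1, a share by 10 percentage points, or the difference in detected features by the SD over old oocytes). When 1 oocyte was left out, features at least 1.5-fold higher ranged from 83 (without young oocyte 24A) to 210 (without young oocyte 33A), features whose oocytes do not overlap from 2 to 6, and the median dispersion ratio from -0.41 to -0.17. Leaving out runs of oocyte names gave 132 lower features, 17 without overlap and 52.4% of higher features also higher in NSN oocytes (old 25 to 31 out). Without old 41 to 48 there were 150 lower features, 13 without overlap, a median of -0.16 at 1 to 10 counts and 84.0% of lower features also lower in NSN. Without old 9 to 16, 9 did not overlap and the dispersion ratio was -0.48, and without young 1 to 7 that ratio was -0.17. Without young 17 to 24 there were 167 lower features, 25 without overlap and a ribosomal protein median of -0.28. Without young 33 to 39 there were 303 higher features, 27 without overlap, a cohesin median of 0.10 and a dispersion ratio of -0.20. Names with the suffix A alone (3 old oocytes, all of 1 run) gave 450 higher, 223 lower and 328 features without overlap, a DNA methylation median of 0.16, a dispersion ratio of -0.75 and 69.1% of lower features also lower in NSN. Names without it gave 192 lower and 98 without overlap, a DNA methylation median of -0.078, a dispersion ratio of 0.086, a distance ratio of 1.12 and 62.3% of higher features also higher in NSN. Thinning gave 140 lower features, 1 without overlap, an RNA sensing median of 0.087 and 82.9% of lower features also lower in NSN. The mean of oocyte CPM gave 73 higher and the median 124 lower features. With at least 1 CPM there were 1144 higher, 967 lower and 4 without overlap, with 71.7% of lower features also lower in NSN; with at least 50 CPM, 9 higher, 13 lower, 1 without overlap, an RNA sensing median of 0.082 and 11.1% of higher features also higher in NSN. Past 2-fold there were 17 higher and 13 lower, and a mean normalised count of at least 50 gave a dispersion ratio of -0.41. TMM and median-of-ratios scaling moved no such value. Subsets hold fewer oocytes; the causes were not tested. No paired analysis was possible because old and young oocytes share no replicate numbers and no test was run. The shares in NSN oocytes, the difference in detected features and the medians by annotation and chromosome were added after the data were seen. Alternatives on NSN oocytes left out no NSN oocyte, and other scalings and estimators were not run for dispersion, distance or overlap.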
